A study of Mus musculus with 17 samples.

Results

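Serum levels of 5 brain-enriched microRNAs (miRNAs) were followed in mice with these assays: mmu-miR-128-3p, mmu-miR-132-3p, mmu-miR-138-5p, mmu-miR-219a-5p and rno-miR-338-3p. They were chosen by assay name, with earlier results of these data known, and are 5 of the 357 miRNA assays of a real-time PCR panel. Serum came from 17 mice in 3 groups. The 3 controls were healthy wild-type FVB/N mice. The other 2 groups were transgenic AT-ATX mice, which carry a transgene for Autotaxin, an enzyme that cells secrete and that produces the lipid signal lysophosphatidic acid: 7 were free of tumors and 7 had spontaneous tumors. The labels do not give the promoter that drives the transgene, the strain background of the transgenic mice, the age of any group or the site of the tumors. The design asks which circulating miRNAs go with the transgene and which with the tumors.

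miRNAs guide a protein complex to messenger RNAs that pair with the seed, bases 2 to 8 of the mature strand, and so lower the output of those messages. In the brain, miR-128, miR-132 and miR-138 are known from neurons: miR-128 restrains excitability, miR-132 is induced by neuronal activity and miR-138 limits the size of dendritic spines. miR-219a and miR-338 are best known from oligodendrocytes, the myelin-forming glia, where they promote maturation, so the 5 are better described as neuron- and glia-enriched than as neuronal. None is restricted to the brain, and serum carries RNA released by many tissues. The source of the RNA was not measured, and release from more cells cannot be told apart from more RNA per cell.

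The mature sequences show which of these assays read related RNAs. They are given from RefSeq (GRCm38.p6), 5′ to 3′, with the seed in capitals. Of the 5 assays, 4 were matched by name, and miR-338-3p is shown as the mouse sequence. mmu-miR-212-3p is added because it shares its seed with miR-132-3p.
mmu-miR-128-3p: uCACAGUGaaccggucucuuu
mmu-miR-132-3p: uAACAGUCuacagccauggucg
mmu-miR-212-3p: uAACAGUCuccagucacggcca
mmu-miR-138-5p: aGCUGGUGuugugaaucaggccg
mmu-miR-219a-5p: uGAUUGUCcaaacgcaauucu
mmu-miR-338-3p: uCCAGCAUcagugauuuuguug
The 5 seeds all differ. Over their 22 bases, miR-132-3p and miR-212-3p are identical at 17 positions. These 2 are encoded side by side on the plus strand, miR-212-3p at chr11:75173443-75173464 and miR-132-3p at chr11:75173723-75173744, with 203 bases between the hairpins. miR-338-3p lies at chr11:120014781-120014802 on the minus strand, within the position of Aatk, a kinase gene of the nervous system. The other 3 miRNAs are each made from 2 loci with the same mature sequence, so the assays cannot tell the loci apart. miR-128-3p comes from Mir128-1 within R3hdm1 (chr1:128202404-128202424, plus) and Mir128-2 within Arpp21 (chr9:112118644-112118664, minus). miR-138-5p comes from Mir138-1 (chr9:122682898-122682920, plus) and from Mir138-2 within Nup93 (chr8:94324312-94324334, plus). miR-219a-5p comes from Mir219a-1 (chr17:34025052-34025072, minus) and from Mir219a-2 within Cercam (chr2:29845689-29845709, minus).

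Each assay gave a quantification cycle (Ct), the PCR cycle at which product was detected, where a lower Ct means more template. All 5 assays were detected in all 17 mice, at Ct 26.5 to 33.9 on a panel whose values ran from 16.5 to just under 37. A level here is the mean Ct of the 252 miRNA assays found in every mouse minus the Ct of the assay, so that a difference of 1 is close to a doubling relative to the rest of the panel. Levels of different assays were not compared, because their PCR efficiencies are not known. Between 312 and 356 miRNA assays were detected per mouse, with the lowest number in tumor replicate 1. Over these shared assays the mean Ct was 28.4 ± 1.5 (SD, n = 3) in wild-type, 29.4 ± 0.83 (n = 7) in tumor-free and 29.8 ± 1.18 (n = 7) in tumor mice. The last decimals of the values took 1 form only in tumor-free replicates 4, 5 and 7 and tumor replicate 1, and 2 forms in the other 13 mice. What this marks is not stated.

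Differences were tested in 1 limma fit of the 3 groups over 338 assays, with Benjamini-Hochberg adjustment within each comparison and a threshold of 0.05. The wild-type mice serve in 2 comparisons and each transgenic group in 2, so the comparisons are not independent. Between tumor and wild-type mice 2 of the 5 assays passed, miR-128-3p and rno-miR-338-3p, both higher with tumors, beside 8.28% of all assays tested (28, with 14 in each direction). Between tumor and tumor-free mice 0 of 5 passed (1.48% of all assays), and 2 of 5, miR-128-3p and miR-132-3p, had an unadjusted p under 0.05 (16.9% of all). For tumor-free against wild-type mice 0 of 5 passed as well (0.592% of all), and 2 of 5, miR-128-3p and rno-miR-338-3p, had an unadjusted p under 0.05 (22.5% of all). For tumor against wild-type mice 3 of 5 did, the third being miR-138-5p (25.1% of all). The exact permutation test gave 0 assays of the whole panel past the threshold in each comparison, with 57, 85 and 45 at an unadjusted p under 0.05 in the order tumor against tumor-free mice, tumor-free mice against wild type, tumor mice against wild type. With 3 wild-type mice no exact p can lie below 0.00833. After adjustment an assay could pass there only if many shared that value, so the 0 counts against wild type carry little weight. The median log2 difference of the 5 assays was 0.54 between the transgenic groups, 1.00 between tumor-free and wild-type mice and 1.54 between tumor and wild-type mice. Over all assays these medians were 0.14, 0.03 and 0.19. In the same order the medians of the 5 were 0.18, -0.02 and 0.16 with raw Ct and 0.51, -0.08 and 0.42 with spike-ins. Over all assays they were -0.24, -1.07 and -1.22 with raw Ct and 0.09, -1.12 and -0.94 with spike-ins. In each comparison 4 of the 5 differences were above 0, beside 55.6%, 50.9% and 54.1% of all assays. With raw Ct these counts were 3, 2 and 3 of 5, beside 115, 70 and 48 of all 338 assays. With spike-ins they were 4, 2 and 3 of 5, beside 187, 65 and 66 of all 338. Tumor and tumor-free mice overlapped for all 5, and 1.18% of all assays had no overlap between these groups.

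**Figure D1:**
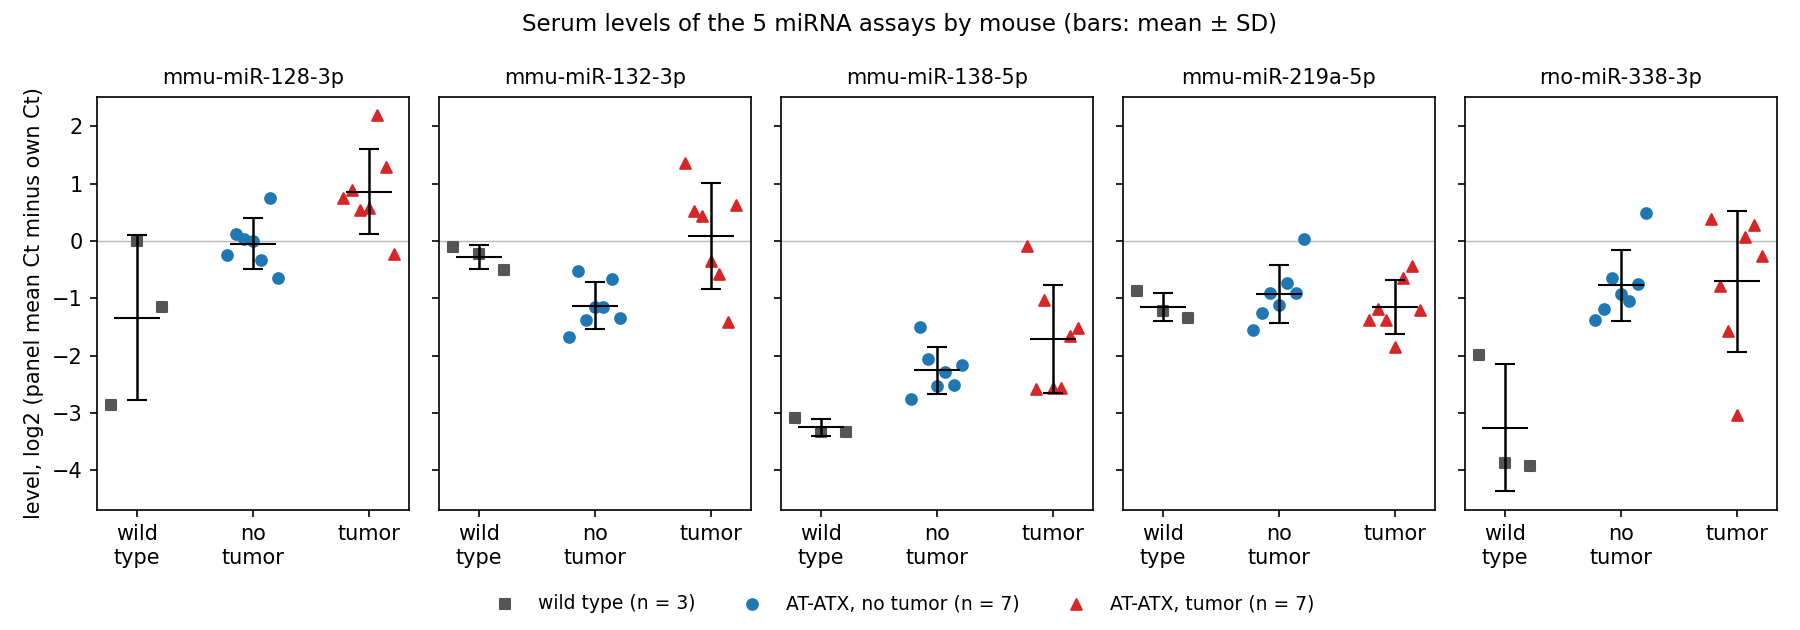
Level of each of the 5 assays (y axis, log2, panel mean Ct minus own Ct) in each mouse, by group on the x axis. Points are mice, and black bars are the group mean and SD. On this scale miR-138-5p and rno-miR-338-3p lie higher in all 7 tumor-free mice than in the 3 wild-type mice, miR-132-3p lies lower, and the groups overlap for miR-219a-5p.

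miR-128-3p, which in neurons keeps excitability in check, was higher relative to the panel in tumor mice than in wild-type mice. Its levels were -2.86, -0.0021 and -1.15 in wild-type replicates 1, 2 and 3. In tumor-free mice the lowest level was -0.65, the median 0.0037 and the highest 0.75. Tumor mice ran from -0.22 in replicate 7 to 2.19 in replicate 5, with a median of 0.75. The wild-type mice were widely spread, with replicate 1 far below replicate 2. Of the 7 tumor mice, 6 were above every wild-type mouse, and replicate 7 was below wild-type replicate 2. The difference was 2.20 (SE 0.56, 95% interval 1.03 to 3.36, 4.58-fold, limma adjusted p = 0.0203). It was 1.43 (adjusted p = 0.114) without wild-type replicate 1 and 2.29 (adjusted p = 0.0818) without wild-type replicate 3, so the call needs both mice. It was 2.21 (adjusted p = 0.0637) without the 4 mice of 1 decimal form, and 2.25 (adjusted p = 0.0284) with that form as a term in the fit. When only tumor and wild-type mice were fitted, it did not pass (limma adjusted p = 0.119). Against tumor-free mice the tumor mice differed by 0.91 (SE 0.43, limma adjusted p = 0.294), with 4 of 7 above all tumor-free mice. Tumor-free and wild-type mice differed by 1.29 (SE 0.56, limma adjusted p = 0.187). That value was 0.53 without wild-type replicate 1 and 1.96 without replicate 2. Raw Ct gave 0.27, and spike-in scaling 0.21.

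miR-132-3p, the activity-induced miRNA, had its lowest values in the tumor-free mice. The wild-type mice stood close together, at -0.098, -0.23 and -0.51. The tumor-free mice had a lowest level of -1.67, a median of -1.15 and a highest of -0.53. In tumor mice the levels ran from -1.41 in replicate 6 through a median of 0.43 to 1.36 in replicate 1. All 7 tumor-free mice were thus below all wild-type mice, by a narrow margin, whereas the tumor mice reached both above and below the wild-type range. A gap of this kind in either direction between tumor-free and wild-type mice was found for 12.7% of all assays. It was found for 3 of the 5 followed here, miR-132-3p, miR-138-5p and rno-miR-338-3p. The tumor-free mice differed from wild type by -0.85 (SE 0.50, 95% interval -1.90 to 0.20, limma adjusted p = 0.319; exact permutation p = 0.00833, the smallest that 3 against 7 allows, adjusted 0.0828). The difference was -1.87 with raw Ct, -1.93 with spike-ins and -0.45 with reference miRNAs. The tumor mice differed from tumor-free mice by 1.22 (SE 0.39, 95% interval 0.40 to 2.03, 2.32-fold, limma adjusted p = 0.12), with 5 of 7 above all tumor-free mice. This difference was 1.46 (adjusted p = 0.0387) without tumor replicate 6 and 1.00 (adjusted p = 0.194) without tumor replicate 1. On other scales it was 0.85 with raw Ct (adjusted p = 0.995), 0.85 with reference miRNAs (adjusted p = 0.54) and 1.18 with spike-ins (adjusted p = 0.984). Tumor against wild type gave 0.37 (limma adjusted p = 0.701), which turned to -1.02 with raw Ct and -0.75 with spike-in scaling and was 0.15 without tumor replicate 1, as it was without the 4 mice of 1 decimal form.

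miR-212-3p, the cluster neighbour with the same seed, was the assay most like miR-132-3p among 246 compared (r = 0.93 over 17 mice with group means taken off, a description). Its Ct was higher than that of miR-132-3p by 2.72 ± 0.87 cycles (SD, n = 17). In tumor-free mice the gap was 2.16 ± 0.66 cycles (n = 7), against 3.10 ± 0.51 (n = 3) in wild-type and 3.11 ± 0.93 (n = 7) in tumor mice. miR-212-3p differed by 0.26 between tumor and tumor-free mice (SE 0.66, limma adjusted p = 0.857). For tumor-free against wild-type mice it differed by 0.09, with a 95% interval of -1.67 to 1.86 that also holds the -0.85 of miR-132-3p. Whether the 2 miRNAs differ in their group difference was not tested.

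**Figure D2:**
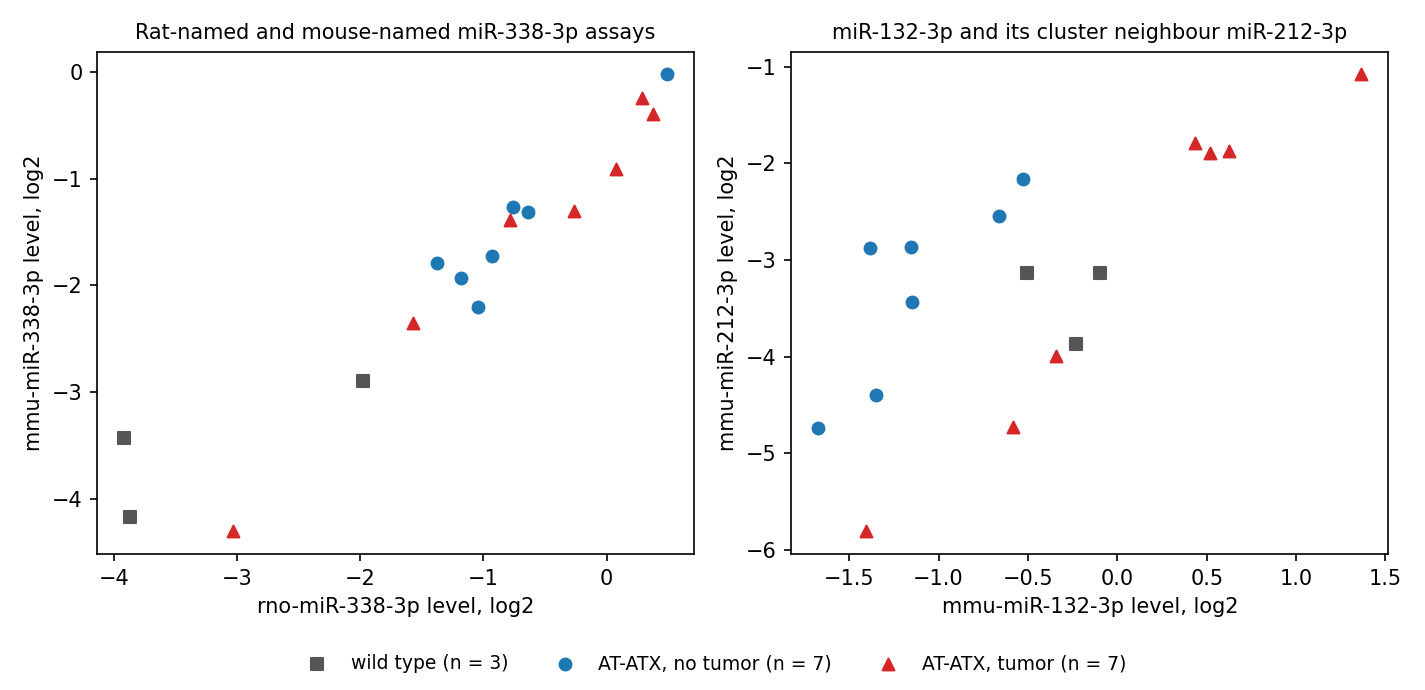
Left, level of the mouse-named miR-338-3p assay (y axis) against the rat-named one (x axis). Right, level of miR-212-3p against miR-132-3p. All axes are log2 levels relative to the panel mean, each point is 1 of 17 mice, and shape and color give the group. Both pairs rise together across mice, and on the right all 7 tumor-free mice lie to the left of the 3 wild-type mice.

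miR-138-5p, the regulator of spine size, had the tightest wild-type values of the 5. The wild-type mice were at -3.09, -3.34 and -3.34. The tumor-free mice had a lowest level of -2.75, a median of -2.29 and a highest of -1.5. Tumor mice ran from -2.58 to -0.085, with a median of -1.67 and the highest value in replicate 1. Both transgenic groups lay above all wild-type mice and overlapped each other. Between tumor and wild-type mice a gap in either direction was found for 9.17% of all assays, and miR-138-5p was 1 of the 5 to show it. The tumor mice differed from wild type by 1.54 (SE 0.51, 95% interval 0.48 to 2.60, 2.91-fold, limma adjusted p = 0.0593). This passed in some other fits, such as that scaled to the median of the shared assays (1.65, adjusted p = 0.047) and those without tumor replicate 4 (1.68, adjusted p = 0.0344) or 5 (1.68, adjusted p = 0.0394). It did not pass with reference miRNAs (1.58, adjusted p = 0.201), when only the 2 groups were fitted (adjusted p = 0.207) or without the 4 mice of 1 decimal form (1.27, adjusted p = 0.175). On the other scales it was 0.16 with raw Ct (adjusted p = 0.918) and 0.42 with spike-ins (adjusted p = 0.842). Tumor-free against wild type gave 1.00 (SE 0.51, limma adjusted p = 0.235; exact permutation p = 0.00833, adjusted 0.0828), and turned to -0.02 with raw Ct and -0.08 with spike-ins. Tumor against tumor-free mice differed by 0.54 (SE 0.39, 95% interval -0.28 to 1.36, limma adjusted p = 0.512), and by 0.27 without tumor replicate 1, 0.22 without the 4 mice and 0.18 with raw Ct.

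miR-338-3p, one of the oligodendrocyte miRNAs, was higher relative to the panel in tumor than in wild-type mice on its rat-named assay. The wild-type mice were at -1.98, -3.87 and -3.92 in replicates 1, 2 and 3. In tumor-free mice the lowest level was -1.37, the median -0.93 and the highest 0.49, in replicate 7. The tumor mice ran from -3.03 in replicate 4 through a median of -0.27 to 0.38 in replicate 1. All 7 tumor-free mice and 6 of 7 tumor mice were above every wild-type mouse, and tumor replicate 4 lay within the wild-type range. The tumor mice differed from wild type by 2.55 (SE 0.66, 95% interval 1.17 to 3.94, 5.88-fold, limma adjusted p = 0.0209). Without wild-type replicate 2 the difference was 2.25 and without replicate 3 it was 2.22, both with an adjusted p of 0.104, so each of these mice decides the call. Without the 4 mice of 1 decimal form it was 2.37 (adjusted p = 0.067), and with the form as a term 2.45 (adjusted p = 0.0302). When only tumor and wild-type mice were fitted, it did not pass (limma adjusted p = 0.116). The tumor-free mice differed from wild type by 2.48 (SE 0.66, 95% interval 1.10 to 3.86, 5.58-fold, limma adjusted p = 0.072; exact permutation p = 0.00833, adjusted 0.0828). This passed without wild-type replicate 1 (adjusted p = 0.0264), without tumor replicate 4 (adjusted p = 0.0267) and when only these 2 groups were fitted (adjusted p = 0.0304). It was farther from passing without wild-type replicate 2 (2.17, adjusted p = 0.303) or 3 (2.15, adjusted p = 0.208), without the 4 mice (2.27, adjusted p = 0.279), with raw Ct (1.46, adjusted p = 0.462) and with spike-ins (1.40, adjusted p = 0.48). The 2 transgenic groups differed by 0.07 (SE 0.51, 95% interval -0.995 to 1.14, limma adjusted p = 0.929), an interval that still allows nearly a doubling in either direction.

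The mouse-named miR-338-3p assay gave a second reading of this miRNA. Its Ct was 0.68 ± 0.40 cycles (SD, n = 17) above that of the rat-named assay, from -0.49 in wild-type replicate 3 to 1.27 in tumor replicate 4. The gap was 0.24 ± 0.71 cycles in wild-type, 0.69 ± 0.25 in tumor-free and 0.85 ± 0.26 in tumor mice. The wild-type mice stood at -2.90, -4.17 and -3.43 on this assay, and all 7 tumor-free mice were again above them. Of the 7 tumor mice, 6 were above every wild-type mouse, and replicate 4, at -4.31, was below all of them. In tumor mice this assay differed from wild type by 1.95 (SE 0.69, 95% interval 0.50 to 3.39, limma adjusted p = 0.0857), which did not pass where the rat-named assay did. For tumor-free against wild-type mice the value was 2.04 (limma adjusted p = 0.149). The 2 assays share their serum samples and are not independent measurements. miR-338-5p, the other strand of the hairpin, was detected in 3 of 3 wild-type, 4 of 7 tumor-free and 6 of 7 tumor mice and fell below the detection filter. Where detected, its levels lay between -7.50 and -4.24 except in tumor replicate 6, which reached 0.26.

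miR-219a-5p, the other oligodendrocyte miRNA, had overlapping levels in the 3 groups. The wild-type mice were at -0.87, -1.22 and -1.35. The tumor-free mice had a lowest level of -1.56, a median of -0.91 and a highest of 0.03, in replicate 7. Tumor mice ran from -1.85 in replicate 4 to -0.44 in replicate 6, with a median of -1.21. The wild-type values fell inside the range of both transgenic groups. Tumor against tumor-free mice gave -0.23 (SE 0.32, 95% interval -0.91 to 0.45, limma adjusted p = 0.772). Tumor-free against wild type gave 0.22 (SE 0.42, limma adjusted p = 0.771), which turned to -0.80 with raw Ct and -0.86 with spike-ins. The value for tumor against wild type was -0.01 (SE 0.42, 95% interval -0.88 to 0.86, limma adjusted p = 0.989). A change of more than about 1 log2 unit lies outside this interval, but only relative to the panel. The same difference was -1.39 with raw Ct (95% interval -3.29 to 0.51, limma adjusted p = 0.344). With spike-ins it was -1.13 (95% interval -3.04 to 0.79, limma adjusted p = 0.547).

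The size of these differences depended on the scaling. Raw Ct moved the median of all assays for tumor against wild type to -1.22 and spike-in scaling to -0.94, where the panel mean gave 0.19. With raw Ct the calls of this comparison over the whole panel were 0 higher and 15 lower, with spike-ins 0 higher and 8 lower, and with reference miRNAs 6 higher and 4 lower. On these scales miR-128-3p differed by 0.82 with raw Ct (adjusted p = 0.589) and 1.08 with spike-ins (adjusted p = 0.551). rno-miR-338-3p differed by 1.17 (adjusted p = 0.49) and 1.44 (adjusted p = 0.53). Neither passed on these scales. A change of scale shifts all assays of a mouse alike, so the distance to the rest of the panel stays nearly the same by construction. Whether these miRNAs rose or the rest of the panel fell was not tested. With 7 reference miRNAs miR-128-3p passed (2.23, adjusted p = 0.0239) and rno-miR-338-3p did not (2.59, adjusted p = 0.12). miR-423-5p, one of the reference miRNAs, was the assay most like miR-128-3p across mice (r = 0.70, a description).

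**Figure D3:**
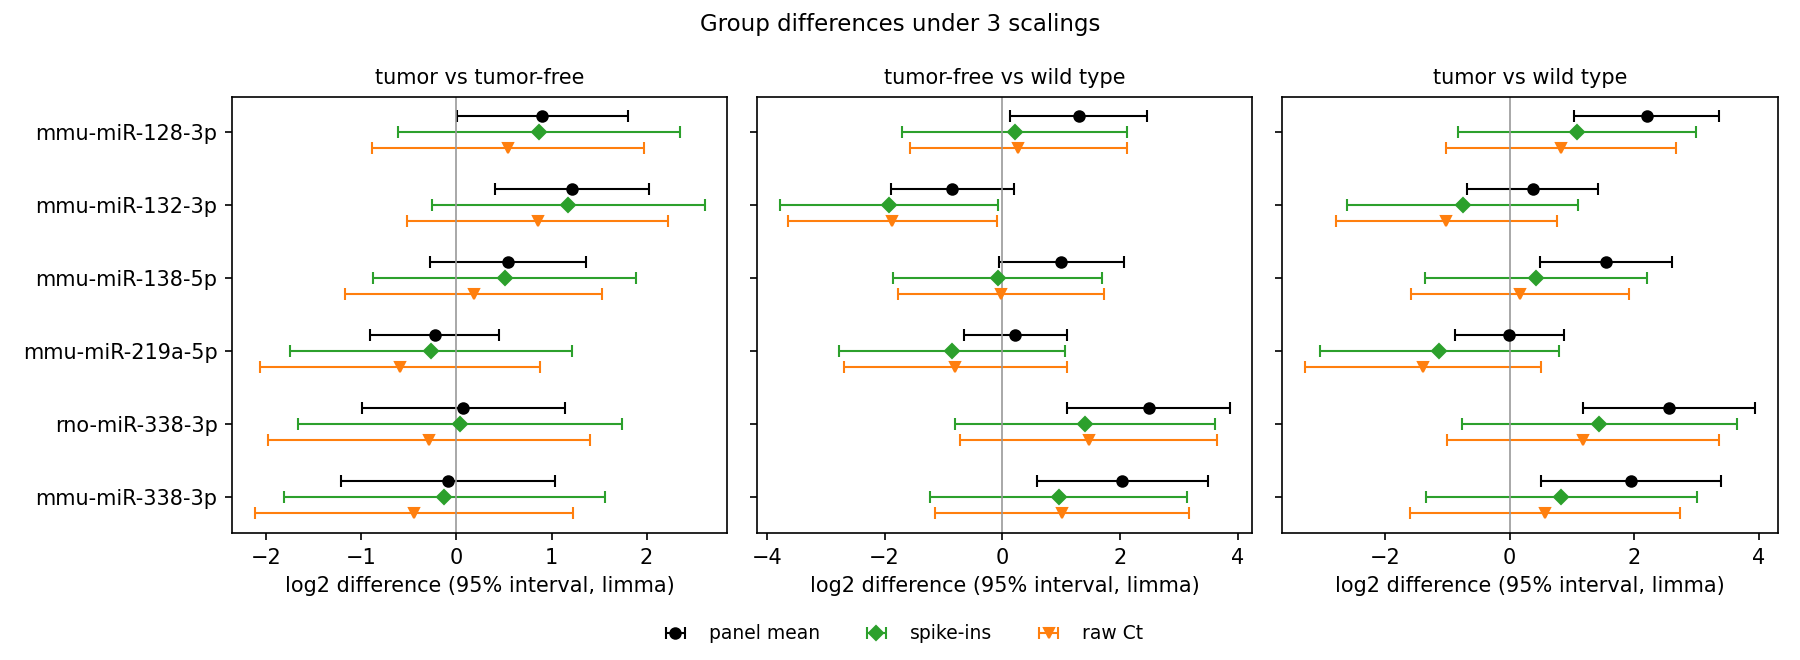
Log2 difference (x axis) of the 5 assays and the mouse-named miR-338-3p assay (y axis) in the 3 comparisons, one per panel, with 95% limma intervals, scaled to the panel mean (circles), to spike-ins (diamonds) or not scaled (raw Ct, triangles). Against wild type the spike-in and raw values lie below those on the panel mean for all 6 assays, and for miR-132-3p, miR-138-5p, miR-219a-5p and rno-miR-338-3p a sign differs between scales in at least 1 panel.

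Across mice, with the group means removed, 1 of the 10 pairs of assays passed. The levels of miR-219a-5p and rno-miR-338-3p rose together over the 17 mice (r = 0.76, permutation p = 0.00038, adjusted p = 0.0038 over 10 pairs; rho = 0.74, permutation p = 0.00108, adjusted p = 0.0108). Without the 2 mice farthest from the median, r was 0.70, within the tumor-free mice it was 0.93 and within the tumor mice 0.75 (n = 7 each). Without tumor-free replicate 7, the mouse highest in both, the adjusted p was 0.0538. On this scale the 3 neuronal miRNAs gave no pair that passed: for miR-132-3p and miR-138-5p, r was 0.56 (permutation p = 0.109, adjusted p = 0.542; rho = 0.51, with a permutation p of 0.0849). Its r was 0.53 once the 2 farthest mice were left out. This pair passed with reference miRNAs (r = 0.80, adjusted p = 0.0255), raw Ct (0.83, adjusted p = 0.00557) and spike-ins (0.85, adjusted p = 0.00285). Levels on the panel mean share that mean, and with raw Ct, which shares the amount of RNA, r was above 0 for all 10 pairs and 0.91 for miR-219a-5p with rno-miR-338-3p.

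Other cell types' miRNAs were set beside these results. A hemolysis index was computed as the cycles by which miR-23a-3p came later than miR-451a, a red blood cell miRNA. It was 5.61 ± 2.07 cycles in wild-type (n = 3), 4.38 ± 0.84 in tumor-free (n = 7) and 3.97 ± 1.97 in tumor mice (n = 7). The level of rno-miR-338-3p fell as the index rose (r = -0.75, permutation p = 0.004, adjusted p = 0.02 over the 5 assays; rho = -0.80, permutation p = 0.00215, adjusted p = 0.0108). Without the 2 farthest mice r was -0.59, within the tumor-free mice -0.55 and within the tumor mice -0.79. The same r was -0.55 with raw Ct (adjusted p = 0.375) and -0.53 with spike-ins (adjusted p = 0.46). With the index as a covariate, tumor against wild type for rno-miR-338-3p was 1.80 (SE 0.51, limma adjusted p = 0.0318) and for miR-128-3p 2.49 (SE 0.55, limma adjusted p = 0.00977). The mouse-named miR-338-3p assay gave 1.11 in the same fit (SE 0.51, limma adjusted p = 0.183) and did not pass. The other 4 assays gave r of 0.37 (miR-128-3p), -0.24 (miR-132-3p), -0.23 (miR-138-5p) and -0.35 (miR-219a-5p) with the index, none of which passed.

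**Figure D4:**
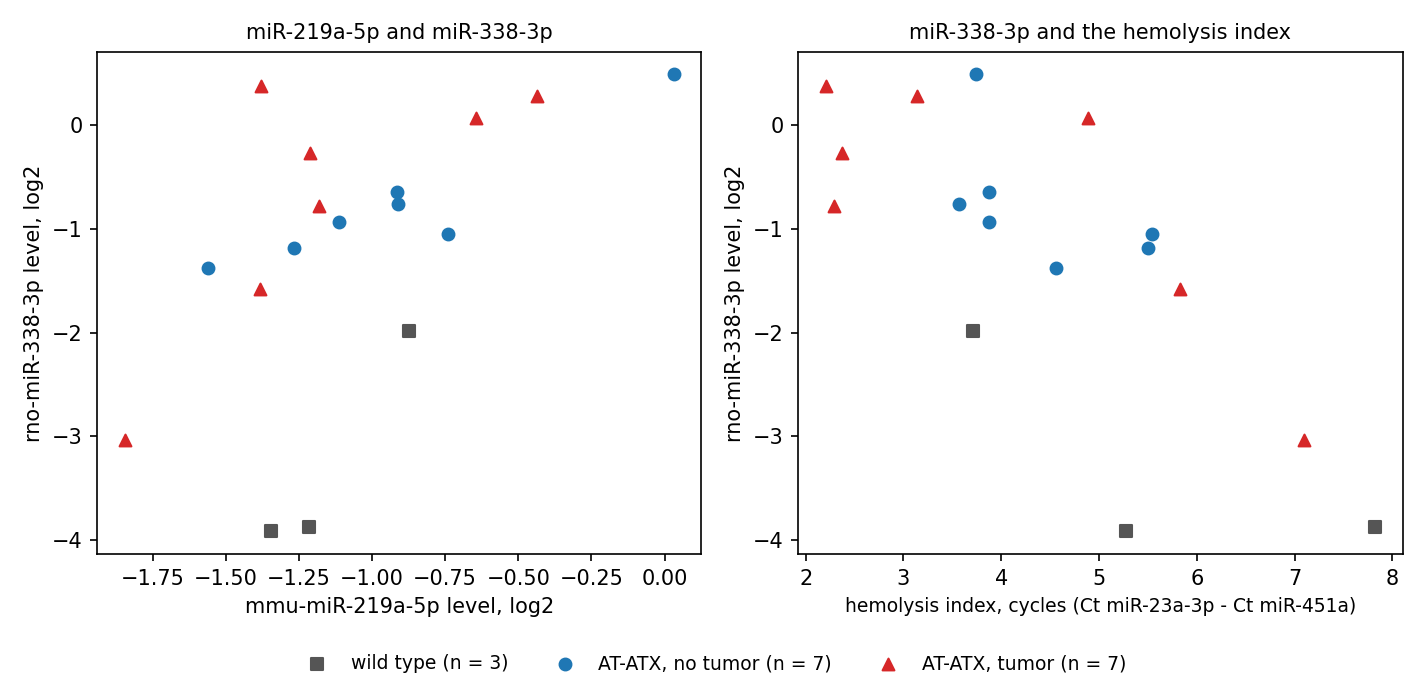
Left, level of rno-miR-338-3p (y axis) against that of miR-219a-5p (x axis). Right, the same level against the hemolysis index in cycles. Each point is 1 of 17 mice, and shape and color give the group. miR-338-3p rises with miR-219a-5p within the transgenic mice. It is low in wild-type replicate 2 and tumor replicate 4, the mice with the highest index (7.82 and 7.09). It is lowest in wild-type replicate 3 (-3.92), whose index is 5.28.

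White blood cell and muscle miRNAs also had higher mean levels relative to the panel in both transgenic groups, as did miR-128-3p, miR-138-5p and rno-miR-338-3p. Red blood cell, platelet and liver miRNAs had lower mean levels there. The mean level of the 2 assays of the myeloid miRNA miR-223-3p was 4.19 ± 0.58 in wild-type, 5.05 ± 0.53 in tumor-free and 5.68 ± 1.02 in tumor mice, with ranges of 3.64 to 4.80, 4.11 to 5.60 and 4.37 to 7.35. For miR-342-3p and miR-150-5p, both known from lymphocytes, the mean was 2.43 ± 0.56, 3.22 ± 0.79 and 3.15 ± 0.99 in the same order, with ranges of 2.07 to 3.08, 2.12 to 4.6 and 2.01 to 5.06. All 4 assays were detected in all mice. The assays most like miR-138-5p were miR-342-3p (r = 0.71), miR-223-3p (0.60) and miR-574-3p (0.59). Those most like miR-219a-5p were miR-146a-5p (r = 0.88), a miRNA of immune cells, miR-361-5p (0.76) and miR-150-5p (0.74). For rno-miR-338-3p they were miR-151-3p (r = 0.86), miR-361-5p (0.85) and let-7a-1-3p (0.82). These r are descriptions over 17 mice and 246 assays. The 2 liver assays went the other way, with a mean level of 7.02 ± 0.80 in wild-type, 6.64 ± 0.44 in tumor-free and 5.36 ± 0.65 in tumor mice, and ranges of 6.23 to 7.84, 6.04 to 7.17 and 4.64 to 6.48. Of these, miR-192-5p fell in tumor against wild-type mice (-1.57, limma adjusted p = 0.0199), and miR-122-5p, the main hepatocyte miRNA, differed by -1.75 (limma adjusted p = 0.136). The part of blood cell, muscle and liver RNA in the group differences was not tested.

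Other brain-enriched miRNAs gave 1 call among 7 tested, in tumor against wild-type mice, where 8.28% of all assays passed. Of 22 names listed as brain-enriched besides the 5, 8 were on the panel, 7 were tested and the 8th, miR-9-3p, was left out by the detection filter. miR-326-3p, a miRNA abundant in brain, rose in tumor against wild-type mice. Its wild-type levels were -3.37, -3.23 and -4.15, and tumor mice ran from -2.28 through a median of -1.43 to 1.60 in replicate 5. The groups did not overlap, as for 9.17% of all assays, and alternative fits were not followed for this assay. The difference of miR-326-3p was 2.56 (SE 0.61, limma adjusted p = 0.0159), and its mean Ct was 30.8 ± 2.1 in tumor against 31.96 ± 1.9 in wild-type mice, the same direction without scaling. The other 6 tested did not pass in any comparison. miR-9-5p, the neural progenitor miRNA, ran the other way, with -1.93 (SE 0.76) for tumor-free and -1.25 for tumor against wild-type mice. The medians of the 7 were 0.26 between the transgenic groups, 0.03 between tumor-free and wild-type mice and 0.36 between tumor and wild-type mice, nearer to the panel's medians than those of the 5 assays. miR-212-3p, the cluster neighbour of miR-132-3p, was 1 of the 7, and the medians of 0.26 and 0.36 are its own differences. Both lists are small and were chosen with earlier results of these data known, so their medians cannot show that the 5 stand out. No test of the lists was made.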

How the data were processed

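Serum RNA (50 µL) was reverse transcribed and run for 40 cycles of SYBR Green PCR on 2 serum miRNA panel plates, per the labels' protocols. The deposited values are Ct per assay and mouse, not normalized by the authors, per the name of the table. No source used here states the threshold, plate calibration or detection limit. There are 365 assays with 8 controls among them, and no value reaches 37. Empty cells were taken as not detected. Levels were tested if found in at least 2 wild-type, 5 tumor-free and 5 tumor mice (338 assays), with limma 3.58.1 (R 4.3.3, lmFit and eBayes, two-sided), tested on simulated data. The exact permutation tests were two-sided. Correlations used 100000 reorderings within groups. Python 3.11.15, numpy 2.4.6, pandas 2.3.3 and scipy 1.17.1 were used. Samples were grouped by their labels, each named as 1 mouse, and p-values measure the spread between these mice. Numbers in the labels of transgenic animals have no stated meaning, and tumor replicate 5 carries a question mark in its label. The assays named were the 5 chosen, those of the same hairpin or seed, up to 3 most like each by r, and the listed markers. Members and lists were chosen with earlier results of these data known. Alternatives covered scaling, detection, filters, variance, covariates and left-out mice. The hemolysis relations under raw Ct and spike-ins were added after seeing the data. RefSeq tables matched 260 of 317 mouse-named assays.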

Additional observations from a re-analysis of the deposited data

Results flagged for a closer look

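In the tumor-free mice, replicate 7 lay far above the other 6 on both miR-338-3p assays. Its level was 0.49 on the rat-named assay, where the next mouse was at -0.64, and -0.0196 on the mouse-named assay. Both assays read the same serum, so this is 1 mouse seen in 2 readings. Of 14 groups looked at, 2 were marked, and chance marks about 1 in 20. This mouse also had the highest miR-219a-5p level of the tumor-free group, 0.03.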

How the results depend on the processing

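The count of the 5 assays that passed was 0 for tumor against tumor-free mice in every alternative except those that left out 1 mouse, where it was 0 to 1, with 1 without tumor replicate 6. For tumor-free against wild-type mice it was 1 when only these 2 groups were fitted, and 0 to 1 with mice left out, with 1 without wild-type replicate 1 or tumor replicate 4. For tumor against wild-type mice it was 1 with reference miRNAs, and 0 with raw Ct, spike-ins, only these 2 groups and without the 4 mice of 1 decimal form. It was also 0 by exact permutation, which with 3 wild-type mice could hardly let any assay pass. It was 3 with the median of the shared assays, with the Ct limit of 35 and with only the assays detected in all mice. With mice left out it was 0 to 3. It was 0 without wild-type replicate 3, 1 without wild-type replicate 1 or 2, and 3 without tumor replicate 4 or 5. No paired analysis was possible because the labels give no replicate numbers that match mice across groups. The number in the animal labels, of unstated meaning, occurs in both transgenic groups for 2 numbers (3 tumor-free and 3 tumor mice), and as a random block it changed no call of the 5 assays. Of the values of single assays and pairs, 308 kept their direction and side of the threshold, 14 passed only under the alternative, 13 no longer passed and 33 turned sign. With 1 mouse left out these numbers were 444, 7, 5 and 20. Signs turned as follows, and the cause was not tested. For tumor against tumor-free mice, rno-miR-338-3p gave -0.29 with reference miRNAs, -0.29 with raw Ct, -0.11 with the hemolysis index as a covariate and -0.11 to 0.46 with mice left out. The mouse-named assay gave 0.0304 with the median, 0.0892 with the decimal form as a term and -0.31 to 0.37 with mice left out. miR-219a-5p gave 0.0453 without the 4 mice. For tumor-free against wild-type mice, miR-138-5p gave -0.0225 (raw Ct) and -0.084 (spike-ins), and miR-219a-5p -0.80, -0.86 and, without the 4 mice, -0.0176. For tumor against wild-type mice, miR-132-3p gave -1.02 (raw Ct) and -0.75 (spike-ins). miR-219a-5p gave 0.10 (median), 0.0275 (reference miRNAs), 0.0907 (quantile), 0.0277 (without the 4 mice) and -0.13 to 0.13 with mice left out. Among pairs, r of miR-138-5p with miR-219a-5p turned to 0.0057 with the median. With reference miRNAs, raw Ct and spike-ins, in that order, it was 0.57, 0.77 and 0.77. In the same order it was 0.14, 0.51 and 0.57 for miR-128-3p with miR-132-3p, 0.0701, 0.48 and 0.53 for miR-128-3p with miR-138-5p, 0.27, 0.59 and 0.60 for miR-128-3p with rno-miR-338-3p, and 0.48, 0.70 and 0.72 for miR-132-3p with miR-219a-5p. With mice left out, r ran from -0.31 to 0.16 for miR-128-3p with rno-miR-338-3p, -0.20 to 0.11 for miR-138-5p with miR-219a-5p, -0.16 to 0.32 for miR-132-3p with rno-miR-338-3p and -0.13 to 0.23 for miR-128-3p with miR-219a-5p. The 3 wild-type mice limit every comparison with them, and no exact p there can lie below 0.00833. Depth is not known beyond Ct.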
